A study of Mus musculus with 109 samples.

Results

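Microglia of mice floxed for both Il10ra and Tnf, but with no Cre among their listed alleles, were followed to 48 h after a peripheral injection of lipopolysaccharide (LPS). The libraries were chosen by their labels: 6 libraries 48 h after LPS and 6 untreated (NT) libraries titled 'WT' IL10RaflTNFfl, 12 of the 89 RNA libraries of the series. A further library titled as this genotype at 48 h was left out, since its description names the double mutant. The series measured RNA and open chromatin in sorted mouse brain microglia; only RNA is used here.

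The 48 h mice carried IL10Rafl/fl:TNFfl/fl and received 2.5 mg/kg LPS intraperitoneally. The same genotype gave 5 libraries at 6 h after the same dose and the 6 NT libraries, which the labels call steady state. Double mutants carried CX3CR1-CreER:IL10Rafl/fl:TNFfl/fl and gave 4 libraries at 48 h and 5 NT libraries. In them a Cre recombinase that needs an estrogen receptor ligand is driven by Cx3cr1, a gene that other tissue macrophages also use. A second kind of control carried IL10Rafl/fl alone, with 6 libraries at 48 h and 6 NT libraries in another table. Every group shares the floxed Il10ra alleles, so no group here is unfloxed. The labels give neither the age nor a tamoxifen schedule, and nothing in them says whether libraries of a group came from separate animals. P-values therefore measure the spread between these libraries, which may be technical.

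LPS is a component of the outer membrane of Gram-negative bacteria. Its receptor TLR4, with CD14 and MD-2, starts NF-kB signalling, which drives TNF, interleukin 1 and chemokines, and a TRIF-dependent branch that induces interferon beta and, through it, interferon-stimulated genes. Interleukin 10, acting through its receptor and STAT3, is a main brake on this response in macrophages and microglia. LPS given outside the brain reaches microglia largely through blood-borne mediators and the cells of brain vessels, and microglia are known to lose part of their homeostatic gene programme during it.

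RNA was measured by MARS-seq, which counts tags from the 3' end of transcripts, so each value is a normalised read count of a gene in a library of many sorted cells. Recovered reads per library ran from 629856 to 2243785 at 48 h, 737588 to 2041325 at 6 h and 583560 to 1410234 in NT. The libraries came from experiments named AS_DKO_LPS_2ndexp (4 at 48 h, 3 at 6 h, 3 NT) and DKO_post_LPS (2, 2 and 3). All microglial markers were present: their summed level had a lowest, median and highest value of 22760, 25650 and 26610 at 48 h and 35680, 36560 and 39890 in NT. Mitochondrial transcripts took 1.504 to 2.612% of reads at 48 h and 0.9944 to 1.338% in NT, without overlap. Markers of other cells stood high in single libraries, and some differed between groups. Neutrophil markers summed to 52.7 to 1428 at 48 h, 33.6 to 6788 at 6 h and 1.48 to 899 in NT, and erythroid markers reached 2671 in 1 NT library. Border-associated macrophage markers summed to 35.0 to 248 at 48 h, 4.405 to 87.1 at 6 h and 18.5 to 136 in NT. Of 7 tested members each, the neutrophil markers Retnlg and Cxcr2 and the border-associated macrophage markers Cbr2 and Folr2 were higher at 48 h than in NT with none lower, and all 7 of the border-associated list were higher than at 6 h. Lymphocyte markers summed to 319 to 656 at 48 h, 42.4 to 93.1 at 6 h and 530 to 915 in NT, without overlap between 48 h and 6 h. Of 2 tested members, Ighm was lower at 48 h than in NT with none higher, and both were higher than at 6 h. Ly6c2 and Ccr2, which define monocytes, averaged 1.79 and 4.86 normalised reads at 48 h and 0.546 and 4.09 in NT. The summed monocyte list was nevertheless higher at 48 h (108 to 414) than in NT (9.04 to 33.9), carried by Fn1 and Plac8, the members that passed the test. The part of these cells in the results was not tested, beyond leaving out the 5 libraries with the highest other-cell markers. That alternative is given for some genes and lists only.

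Throughout, 3 values given for 48 h, 6 h or NT are the lowest, median and highest library of that group in normalised reads. A log2 difference is 48 h minus its comparison group, on log2 of value plus 1, with its standard error; it understates the change of genes near 0. The test is limma across all genes that passed a filter on low values, with Benjamini-Hochberg adjustment, and a gene is said to have risen or fallen at an adjusted p under 0.05. Because these are bulk libraries, a lower level can mean fewer cells with a transcript or less of it per cell, and these cannot be told apart.

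At 48 h the transcriptome of these control microglia was still far from that of NT. Of 10757 genes tested, 3371 changed (31.3%), with 1847 higher (17.2%) and 1524 lower (14.2%). The counts of each list against NT below are to be read beside these shares. Genes near 0 in NT could pass the filter on low values only through LPS libraries, which favours rises in such counts. Changes of at least 2-fold were more often rises: 841 genes rose and 325 fell by a log2 of 1 or more. The median log2 difference over all genes tested was -0.01. In 885 genes (8.23%) every 48 h library lay above every NT library, and in 603 genes (5.61%) every one lay below. With the DKO_post_LPS experiment alone, 2 libraries against 3, 1661 genes changed, and 2247 changed without the 5 libraries named above. Quantile normalisation moved the median of all genes to -0.07 and the share of rises among the changed genes to 45.8%, against 54.8% in the deposited scale.

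**Figure D1:**
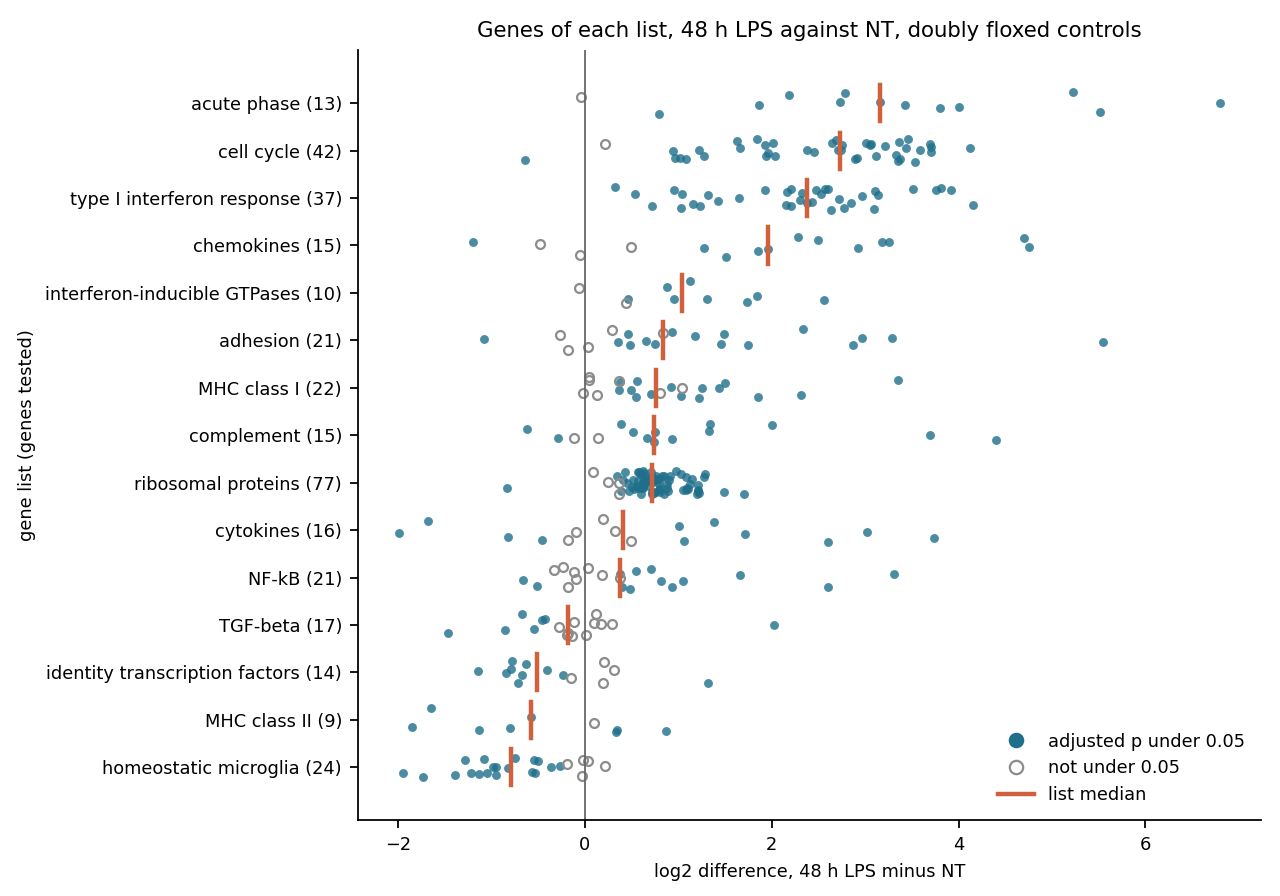
Each point is a gene of the list named on the vertical axis (number of genes tested in brackets), placed by its log2 difference between 48 h LPS and NT in doubly floxed controls; filled points have an adjusted p under 0.05, open points do not, and the bar is the list median. Acute phase, cell cycle and interferon response genes lie almost wholly to the right of 0, with medians of 3.16, 2.73 and 2.38, and homeostatic genes almost wholly to the left, with a median of -0.79.

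The genes with the largest rises were led by secreted and surface proteins of innate defence, here chosen by the size of the change, so their values are a description. Saa3, a serum amyloid A of the acute phase response, had 2933, 4490 and 9659 normalised reads at 48 h, against 22.2, 50.4 and 96.0 in NT (log2 6.80 ± 0.26). Lcn2, the siderophore-binding lipocalin, had 189, 405 and 1120 at 48 h and 3.71, 11.5 and 45.7 in NT (log2 5.22 ± 0.51). Lrg1, a secreted leucine-rich glycoprotein of the acute phase, had 41.5, 89.1 and 179.6 at 48 h and 0, 1.36 and 3.38 in NT (log2 5.52 ± 0.33). None of these ranges overlap, although Lcn2, which neutrophils also carry, was highest in the NT and 6 h libraries with the most neutrophil markers. Fn1, fibronectin, had 73.5, 170.4 and 342 at 48 h and 0.844, 2.79 and 5.31 in NT (log2 5.55 ± 0.31), and the scavenger receptor gene Marco 87.1, 187 and 424 at 48 h and 0, 5.70 and 16.9 in NT (log2 5.03 ± 0.50). Ccl5, a chemokine for T cells and monocytes, had 389.6, 546 and 716 at 48 h and 13.3, 20.8 and 40.6 in NT, the smallest standard error of these genes (log2 4.75 ± 0.15). Cxcl13, the B cell attracting chemokine, had 39.5, 96.1 and 143 at 48 h and 0, 2.38 and 7.53 in NT (log2 4.70 ± 0.44).

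The other 5 largest rises came from enzymes and regulators. Xdh, which makes uric acid from purines, averaged 118 ± 66.1 at 48 h and 3.11 ± 2.63 in NT (SD, n = 6 each; log2 5.03 ± 0.39). Cyp4f18, a cytochrome P450 that inactivates leukotriene B4 in mice, averaged 116.2 ± 37.4 at 48 h and 2.98 ± 2.51 in NT (log2 4.995 ± 0.40). Fxyd5, a regulator of the sodium pump, averaged 161 ± 64.3 at 48 h and 4.999 ± 1.82 in NT (log2 4.74 ± 0.28), and Gpx3, the secreted glutathione peroxidase, 84.2 ± 45.9 at 48 h and 2.65 ± 1.89 in NT (log2 4.68 ± 0.49). Igfbp6, a binding protein of insulin-like growth factors, had 246 reads over the 48 h libraries and 3 over the NT libraries, a ratio of 54.6 per read sequenced with a 95% counting interval of 18.5 to 267. Every 48 h library lay above every NT library for all 12 genes, which the way they were chosen makes likely.

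The 12 largest falls were in genes of varied roles. Hlf, a transcription factor of the PAR bZIP family, had 0, 0.261 and 3.57 normalised reads at 48 h and 11.8, 21.7 and 30.4 in NT (log2 -3.83 ± 0.38). Upk1b, a tetraspanin of the uroplakin group, had 8.43, 22.9 and 32.1 at 48 h and 159, 205 and 251 in NT (log2 -3.35 ± 0.23), the highest NT level of the 12. Sox4, an HMG-box transcription factor, had 10.4, 12.7 and 31.98 at 48 h and 71.5, 90.4 and 106 in NT (log2 -2.49 ± 0.22), and Csmd3, a large membrane protein with complement control domains, 20.2, 28.0 and 39.2 at 48 h and 92.2, 124.1 and 155 in NT (log2 -2.18 ± 0.16). Gimap6, a GTPase studied in lymphocytes, averaged 4.71 ± 1.75 at 48 h and 43.5 ± 3.89 in NT (log2 -3.04 ± 0.24), and Tnfrsf17, the receptor BCMA of plasma cells, 7.80 ± 5.05 at 48 h and 46.1 ± 8.43 in NT (log2 -2.66 ± 0.39). Cass4, a scaffold of the Cas family, averaged 7.62 ± 3.55 at 48 h and 53.2 ± 19.3 in NT (log2 -2.77 ± 0.32). The remaining 5 were Gprasp2 (log2 -3.26), Dnajc28 (-2.81), Tmem204 (-2.65), Sema4b (-2.56) and Duoxa1 (-2.53), with NT means between 21.7 and 52.4 normalised reads.

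**Figure D2:**
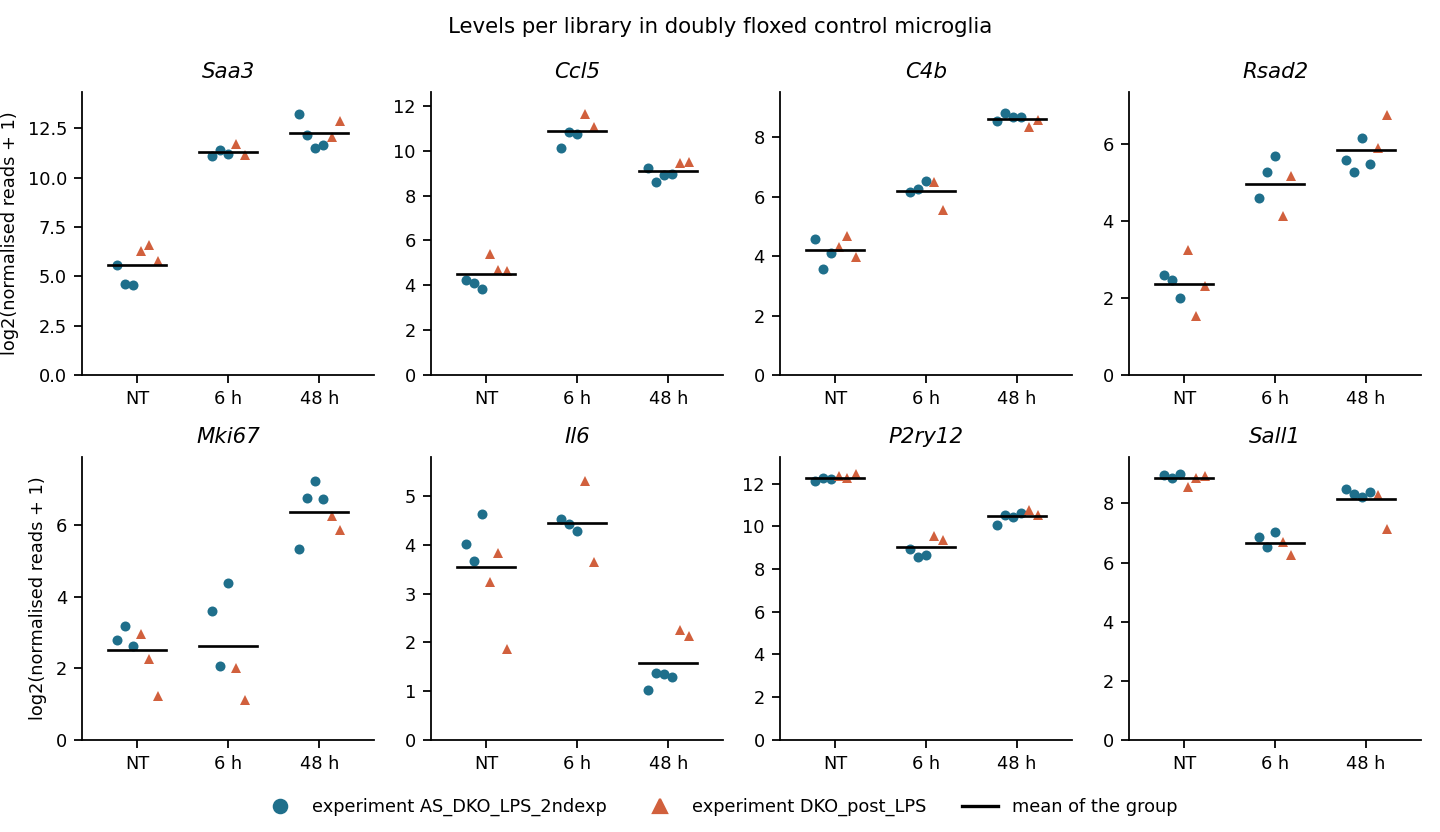
Each panel shows 1 gene, with log2(normalised reads + 1) on the vertical axis and NT, 6 h and 48 h along the horizontal axis; each point is a library, its shape and colour the experiment, and the line the group mean. Saa3, C4b, Rsad2 and Mki67 have no NT library above any 48 h library, Ccl5 is highest at 6 h, P2ry12 and Sall1 lie lowest at 6 h and below NT at 48 h, and Il6 is lowest at 48 h.

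Inflammatory cytokine transcripts were split at 48 h. Of 25 listed, 16 were tested, 7 rose and 4 fell, with a list median log2 of 0.41. Tnf, the cytokine whose gene is floxed here, had 71.5, 127 and 246 normalised reads at 48 h, against 5.65, 14.4 and 26.7 in NT (log2 3.02 ± 0.25, adjusted p 1.33e-09). Il1b, interleukin 1 beta, had 62.8, 98.1 and 229 at 48 h and 3.62, 5.48 and 15.2 in NT (log2 3.74 ± 0.35, adjusted p 1.3e-08). Neither gene's 48 h libraries overlap its NT libraries. Il12b, the shared subunit of interleukins 12 and 23, had 56 reads at 48 h and 3 in NT, a ratio of 12.4 with a counting interval of 4.04 to 62.1. Csf1, a ligand of the receptor on which microglia depend, averaged 97.9 ± 15.3 at 48 h and 29.9 ± 11.3 in NT (SD, n = 6 each; log2 1.71 ± 0.17, adjusted p 3.04e-08), and Il1a averaged 126.2 ± 34.5 at 48 h and 57.4 ± 19.4 in NT (log2 1.01 ± 0.19, adjusted p 0.00023, and 0.0842 with DKO_post_LPS alone). With that experiment alone, 5 genes of the list rose and 2 fell. Without the 5 libraries high in other-cell markers, 5 rose and 4 fell.

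The 4 cytokine genes that fell were Il6, Il16, Ltb and Tgfb1. Il6 had 1.01, 1.57 and 3.76 normalised reads at 48 h and 2.65, 12.5 and 23.7 in NT, so its ranges overlap (log2 -1.99 ± 0.39, adjusted p 0.000302), and with the DKO_post_LPS libraries alone its adjusted p was 0.487. Tgfb1, a factor that microglial identity depends on, had 221, 258 and 327 at 48 h and 300.3, 385 and 563 in NT (log2 -0.46 ± 0.09, adjusted p 0.00024). Il16 averaged 143 ± 19.1 at 48 h and 252 ± 37.4 in NT (log2 -0.82 ± 0.12, adjusted p 8.53e-06, and 0.0946 with DKO_post_LPS alone). Ltb, lymphotoxin beta, averaged 12.3 ± 6.67 at 48 h and 33.7 ± 6.44 in NT (log2 -1.68 ± 0.34, adjusted p 0.00042). Il10 was under the filter on low values and was not tested.

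Chemokines rose more uniformly: of 22 listed, 15 were tested, 11 rose and Ccl24 fell, with a median log2 of 1.96; none fell within either experiment alone. Ccl2, the ligand that draws CCR2+ monocytes, had 289.7, 448 and 586 normalised reads at 48 h and 48.9, 55.3 and 69.4 in NT (log2 2.92 ± 0.17, adjusted p 7.08e-12). Ccl12, another CCR2 ligand in mice, had 849.9, 1142 and 1628 at 48 h and 150.1, 205 and 294 in NT (log2 2.49 ± 0.15, adjusted p 4.89e-12). Cxcl10, an interferon-induced ligand of CXCR3, had 147, 206 and 428 at 48 h and 11.8, 21.2 and 43.4 in NT (log2 3.18 ± 0.26, adjusted p 1.22e-09). Cxcl16, a chemokine that is also a scavenger receptor, had 349, 434 and 488 at 48 h and 97.9, 106 and 126.5 in NT (log2 1.96 ± 0.10, adjusted p 6.75e-13). In all 4 genes every 48 h library was above every NT library.

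The promoter of Cxcl10 is shown because Cxcl10 rose most among the rising chemokine genes whose promoter holds a match to an NF-kB motif. It is given 5′ to 3′ from 250 bases before the start site, from RefSeq on GRCm38.p6 (chr5:92348890-92349139, minus strand), with matches to GGGA or GGGG, any 2 bases and TTCC on either strand in capitals.
Cxcl10: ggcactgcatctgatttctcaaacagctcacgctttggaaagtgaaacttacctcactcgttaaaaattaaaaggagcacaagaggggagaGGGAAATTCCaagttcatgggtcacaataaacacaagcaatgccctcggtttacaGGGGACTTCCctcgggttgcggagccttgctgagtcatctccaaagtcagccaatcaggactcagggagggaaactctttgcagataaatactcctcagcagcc
It holds 2 matches. Such a match lay in 3 of 6 promoters of rising chemokine genes (6 of 11 genes had a promoter in the table), in 5 of 35 promoters of rising interferon response genes (14.3%), and in 2.46% of all 32851 promoters of the same length.

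The receptor and antagonist genes of TNF and interleukin 1 changed in part, with 6 of 14 tested rising and 2 falling. The counts were 6 and 0 with AS_DKO_LPS_2ndexp alone, and 3 and 0 with DKO_post_LPS alone. Over all genes tested, 17.2% rose and 14.2% fell, so the falls of this list are near that share. Il1rn, the interleukin 1 receptor antagonist, had 5.71, 16.6 and 20.3 normalised reads at 48 h and 0, 2.33 and 4.45 in NT (log2 2.35 ± 0.38, adjusted p 3.55e-05). Il18bp, which binds and blocks interleukin 18, had 12.5, 20.3 and 42.1 at 48 h and 0, 3.02 and 7.53 in NT (log2 2.81 ± 0.35, adjusted p 1.12e-06). Tnfrsf1a, the main TNF receptor, averaged 359 ± 29.6 at 48 h and 364 ± 45.7 in NT (SD, n = 6 each), and its log2 difference of -0.06 ± 0.09 did not pass the test (adjusted p 0.666).

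Acute phase and innate defence genes had the highest median of the 30 lists. Of 25 listed, 13 were tested, 12 rose and none fell (by edgeR and DESeq2 likewise 12 and 0), with a median log2 of 3.16. Members near 0 in NT, such as Lrg1, passed the filter on low values only through LPS libraries. The count and the median are therefore in part set by the filter. Cp, the copper-binding ferroxidase ceruloplasmin, had 60.2, 120.4 and 213 normalised reads at 48 h and 2.97, 7.00 and 16.03 in NT (log2 3.81 ± 0.29, adjusted p 5.69e-10). Wfdc17, a secreted whey acidic protein, had 18.03, 31.7 and 50.2 at 48 h and 1.33, 3.99 and 8.90 in NT (log2 2.74 ± 0.36, adjusted p 2.46e-06). Lyz2, lysozyme, had 1088, 1152 and 1419 at 48 h and 594, 685 and 939 in NT (log2 0.79 ± 0.13, adjusted p 4.44e-05). None of the 3 genes overlaps between the groups.

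The Saa3 promoter is shown for a C/EBP motif, the site class known from acute phase genes in liver. Saa3 rose most among the rising acute phase genes whose promoter holds a match, so its match follows from the choice. The window is chr7:46715677-46715926 on GRCm38.p6, minus strand, with the match to TTGCGNAA or TTGCNNAAT on either strand in capitals.
Saa3: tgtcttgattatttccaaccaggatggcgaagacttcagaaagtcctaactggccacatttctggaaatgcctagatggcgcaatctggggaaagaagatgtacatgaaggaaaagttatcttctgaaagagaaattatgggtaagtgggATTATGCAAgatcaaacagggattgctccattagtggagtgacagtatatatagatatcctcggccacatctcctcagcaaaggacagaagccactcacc
The match begins 100 bases before the start site. A match lay in 2 of 13 promoters of rising acute phase genes (15.4%), and 11 of 12 of these genes had a promoter. The share was alike in rising chemokine genes, with 1 of 6 promoters (16.7%). It was 1 of 36 in rising cell cycle genes (2.78%), 0 of 35 in rising interferon response genes and 2.64% of all promoters.

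Type I interferon response genes rose as a whole list. Of 39 listed, 37 were tested and all 37 rose, against 17.2% of all genes tested; their median log2 was 2.38 and 36 of them rose with either edgeR, DESeq2 or quantile normalisation. Ifitm3, which blocks the entry of enveloped viruses, had 192, 281 and 538 normalised reads at 48 h and 13.6, 21.1 and 49.1 in NT (log2 3.81 ± 0.21, adjusted p 2.09e-12). Irf7, the transcription factor that amplifies interferon alpha, had 145.6, 249 and 346 at 48 h and 19.9, 27.7 and 37.6 in NT (log2 3.10 ± 0.20, adjusted p 2.56e-11). Both genes were higher in 6 of 6 libraries than in any NT library.

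Effectors of the antiviral state rose too. Rsad2, viperin, had 37.6, 52.8 and 106 normalised reads at 48 h and 1.88, 4.25 and 8.46 in NT (log2 3.51 ± 0.30, adjusted p 2.78e-09). Isg15, a ubiquitin-like modifier, had 94.9, 135 and 413 at 48 h and 18.5, 30.1 and 35.8 in NT (log2 2.72 ± 0.23, adjusted p 3.28e-09). Oasl2, of the oligoadenylate synthetase family, had 50.7, 66.1 and 111.6 at 48 h and 2.53, 8.26 and 13.2 in NT (log2 3.14 ± 0.25, adjusted p 1.21e-09). Ifi27l2a, an interferon-induced protein, had 296, 1406 and 2091 at 48 h and 51.5, 78.2 and 171 in NT (log2 3.76 ± 0.35, adjusted p 9.66e-09). Oas3 was near the filter, with 6.09, 10.1 and 30.3 at 48 h and 0, 0.422 and 3.38 in NT (log2 2.85 ± 0.51, adjusted p 0.000114), and its highest 48 h value came from 1 library. Reads of families with near-identical copies, such as the Ifit, Oas and H2 genes or C4b, could have been split between copies in counting.

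The promoters of Rsad2 and Oas3 are shown for the interferon-stimulated response element, a site class known from interferon-induced genes. These genes rose most among the rising interferon response genes whose promoter holds a match, so their matches follow from the choice. Both windows end at the start site on the minus strand of GRCm38.p6, at chr12:26456453-26456702 and chr5:120777660-120777909, with matches to GAAA, any 2 bases and GAAA on either strand in capitals.
Rsad2: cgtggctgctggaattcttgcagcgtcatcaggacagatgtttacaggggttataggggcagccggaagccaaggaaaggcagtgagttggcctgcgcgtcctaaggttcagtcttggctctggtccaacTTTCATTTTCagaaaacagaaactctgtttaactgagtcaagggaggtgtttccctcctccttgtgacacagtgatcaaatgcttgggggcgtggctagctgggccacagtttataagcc
Oas3: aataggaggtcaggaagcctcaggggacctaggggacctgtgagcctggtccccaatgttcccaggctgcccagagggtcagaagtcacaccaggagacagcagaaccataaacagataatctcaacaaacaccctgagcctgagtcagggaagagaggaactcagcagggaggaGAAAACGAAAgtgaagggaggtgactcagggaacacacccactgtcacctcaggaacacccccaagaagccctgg
The matches begin 120 and 75 bases before the start. A match lay in 13 of 35 promoters of the rising interferon response genes (37.1%), and 28 of 37 of these genes had a promoter. Of other lists, 1 of 6 promoters of rising chemokine genes (16.7%) and 1 of 13 of rising acute phase genes (7.69%) held a match. So did 1 of 36 of rising cell cycle genes (2.78%), 0 of 16 of falling homeostatic genes, and 2.98% of all promoters. The Cxcl10 window above holds a match to this element too, which is not marked there.

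Interferon-inducible GTPases, which attack vacuoles of intracellular microbes, rose in 8 of 10 tested genes with none lower (8 and 0 with edgeR, 7 and 0 with DESeq2, 5 and 0 without the 5 libraries high in other-cell markers). Gbp2 had 32.5, 44.9 and 59.6 normalised reads at 48 h and 1.88, 6.95 and 11.9 in NT (log2 2.56 ± 0.27, adjusted p 6.96e-08). Zbp1, a sensor of Z-form nucleic acids that can start necroptosis, had 67.0, 104 and 136 at 48 h and 2.65, 7.45 and 13.2 in NT (log2 3.67 ± 0.26, adjusted p 1.81e-10). Nlrp3, the sensor of the NLRP3 inflammasome, was the other way, with 35.4, 58.7 and 69.5 at 48 h and 60.9, 75.2 and 126.1 in NT (log2 -0.70 ± 0.17, adjusted p 0.00324). With AS_DKO_LPS_2ndexp alone its log2 was -0.37 (adjusted p 0.0603), and without the experiment term -0.61 (adjusted p 0.0545). Its groups overlap between 60.9 and 69.5.

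Antigen presentation genes separated by class. In class I, 15 of 22 tested genes rose and none fell (17 and 0 with edgeR and with DESeq2, 9 and 0 with DKO_post_LPS alone). H2-K1, a classical class I heavy chain, had 1108, 1521 and 1846 normalised reads at 48 h and 436, 526 and 584 in NT (log2 1.497 ± 0.13, adjusted p 2.77e-09), and B2m, the shared light chain, 6188, 8092 and 8559 at 48 h and 3558, 4057 and 4629 in NT (log2 0.93 ± 0.12, adjusted p 1.97e-06). Nlrc5, the transactivator of class I genes, had 30.7, 50.6 and 67.3 at 48 h and 0, 5.45 and 10.2 in NT (log2 3.35 ± 0.41, adjusted p 8.91e-07).

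In class II, 3 of 9 tested genes rose and 5 fell, with 3 and 2 in AS_DKO_LPS_2ndexp alone, 0 and 4 in DKO_post_LPS alone, and 1 and 5 after quantile normalisation. H2-Aa, a chain of the surface molecule, had 7.83, 9.41 and 17.8 normalised reads at 48 h and 11.8, 74.0 and 190.1 in NT (log2 -1.85 ± 0.39, adjusted p 0.000673), and H2-Eb1 1.04, 5.90 and 20.7 at 48 h and 2.71, 29.6 and 131.8 in NT (log2 -1.65 ± 0.44, adjusted p 0.00563). The NT libraries of both spread widely and overlap with 48 h, and in AS_DKO_LPS_2ndexp alone neither passed (adjusted p 0.146 and 0.1). H2-Oa, which restrains peptide loading in B cells, did not overlap, with 41.6, 82.7 and 115 at 48 h and 129, 175 and 229.5 in NT (log2 -1.13 ± 0.17, adjusted p 1.15e-05). Cd74, the invariant chain, averaged 139 ± 45.6 at 48 h and 102 ± 75.2 in NT (log2 0.87 ± 0.25, adjusted p 0.00934), but its log2 was 0.077 in DKO_post_LPS alone (adjusted p 0.888), and it missed the threshold without the experiment term (adjusted p 0.164) and without the 5 libraries high in other-cell markers (adjusted p 0.0557). Without those libraries none of the 9 class II genes rose and 5 fell; the separate tools edgeR and DESeq2, on all libraries, each gave 3 and 5.

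NF-kB subunits and feedback genes changed in part: of 21 tested, 11 rose and 2 fell (5 and 2 with DKO_post_LPS alone), with a median log2 of 0.38. Bcl3, an atypical inhibitor that acts in the nucleus, had 62.8, 78.9 and 93.9 normalised reads at 48 h and 6.68, 12.1 and 18.6 in NT (log2 2.605 ± 0.19, adjusted p 3.28e-10). Nfkbia, which encodes the inhibitor IkB alpha, had 716, 1076 and 1438 at 48 h and 381, 670.5 and 954 in NT, with overlap (log2 0.71 ± 0.17, adjusted p 0.00294, and 0.0628 after quantile normalisation). Rela, the p65 subunit, was lower, with 114.5, 121 and 131.7 at 48 h and 174, 198 and 214 in NT (log2 -0.66 ± 0.08, adjusted p 1.07e-06). Its libraries did not overlap.

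Of the IL-10 receptor, STAT3 and their response genes, 9 of 16 tested rose and Il10ra fell. Il10ra, which is floxed here but not deleted, had 315, 426 and 470.3 normalised reads at 48 h and 409.6, 489.8 and 533 in NT (log2 -0.29 ± 0.10, adjusted p 0.028); its ranges overlap and the call was lost without any 1 of 4 libraries and without the 5 high in other-cell markers (adjusted p 0.145). Il10rb, the shared second chain, had 246, 273 and 332 at 48 h and 179, 229 and 255 in NT (log2 0.30 ± 0.12, adjusted p 0.0487, lost with edgeR at 0.057, without any 1 of 9 libraries, and without the 5 high in other-cell markers at 0.362). The response side moved further. Socs3, an inhibitor of cytokine receptor signalling, had 652, 796 and 993 at 48 h and 176, 219.5 and 249 in NT (log2 1.86 ± 0.14, adjusted p 5.19e-10). Sbno2, a transcriptional co-regulator downstream of STAT3, had 389, 512 and 570.4 at 48 h and 136, 143 and 176 in NT (log2 1.66 ± 0.13, adjusted p 1.23e-09), and Stat3 itself averaged 229 ± 19.9 at 48 h and 147.5 ± 13.2 in NT (log2 0.58 ± 0.11, adjusted p 0.000206).

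Complement genes rose in 11 of 15 tested and fell in 2 (9 and 0 without the 5 libraries high in other-cell markers). C4b, which supplies the C4 of both the classical and lectin pathways, had 324, 397 and 452 normalised reads at 48 h and 10.8, 17.5 and 24.5 in NT (log2 4.41 ± 0.17, adjusted p 2.28e-15). C3, the central component, had 26.3, 60.3 and 88.5 at 48 h and 1.33, 3.80 and 9.41 in NT (log2 3.69 ± 0.34, adjusted p 7.99e-09). C1qa, a subunit of the initiator C1q that microglia make in the brain, had 15810, 18670 and 22700 at 48 h and 11370, 11890 and 13530 in NT (log2 0.67 ± 0.11, adjusted p 6.98e-05). That last rise missed the threshold after quantile normalisation (adjusted p 0.304). Itgam, the CD11b chain of complement receptor 3 and 1 of the sort markers, had 1332, 1673 and 2022 at 48 h and 727, 899 and 1082 in NT (log2 0.94 ± 0.11, adjusted p 7.04e-07).

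Of the phagocytic receptors, 11 of 23 tested were higher and 4 lower. Over all genes tested the shares were 17.2% and 14.2%, so the falls do not set this list apart. Fcgr4, an activating Fc receptor for IgG, had 211, 295 and 343 normalised reads at 48 h and 13.5, 18.6 and 28.2 in NT (log2 3.85 ± 0.16, adjusted p 3.54e-15). Axl, a receptor that clears apoptotic cells in inflamed tissue, had 102, 133 and 226 at 48 h and 20.8, 26.2 and 36.4 in NT (log2 2.37 ± 0.20, adjusted p 3.74e-09). Mertk, its relative in resting tissue, was lower, with 702, 899 and 1070 at 48 h and 1142, 1253 and 1607 in NT (log2 -0.60 ± 0.09, adjusted p 1.65e-05). Trem2, the lipid receptor on which the disease-associated microglial state depends, was lower too, with 1913, 2413 and 3522 at 48 h and 2939, 4202 and 4627 in NT (log2 -0.61 ± 0.10, adjusted p 6.38e-05). Axl and Mertk do not overlap between groups, and Trem2 does.

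Genes known to rise in disease-associated microglia were higher in 17 of 26 tested and lower in 3, Cd9, Trem2 and Ank. Over all genes tested, 17.2% were higher and 14.2% lower. Cd52, a small surface glycoprotein, had 1724, 1837 and 2442 normalised reads at 48 h and 210.0, 241 and 306 in NT (log2 2.99 ± 0.10, adjusted p 1.56e-16). Lgals3bp, a secreted galectin ligand, had 1560, 1610 and 2031 at 48 h and 243, 269.9 and 326 in NT (log2 2.57 ± 0.10, adjusted p 1.2e-15). Cybb, the catalytic subunit of the phagocyte NADPH oxidase, had 139, 233 and 249 at 48 h and 4.52, 10.3 and 19.9 in NT (log2 4.33 ± 0.27, adjusted p 1.39e-11). Apoe, the lipid carrier, had 9851, 14540 and 20590 at 48 h and 5611, 7598 and 9469 in NT (log2 0.98 ± 0.13, adjusted p 3.05e-06). Spp1, osteopontin, was raised slightly, with 5.06, 13.7 and 20.7 at 48 h and 1.69, 4.14 and 10.2 in NT (log2 1.51 ± 0.30, adjusted p 0.00037), and missed the threshold within DKO_post_LPS alone (adjusted p 0.563). The tetraspanin gene Cd9 averaged 673 at 48 h and 1027 in NT (log2 -0.63 ± 0.12, adjusted p 0.000318).

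Homeostatic microglial genes were the lists' clearest fall: of 24 tested, 19 fell and none rose, against 14.2% of all genes lower. Their median log2 was -0.79. The counts were 19 and 0 with edgeR and DESeq2, and 16 and 1 with DKO_post_LPS alone. Without the 5 libraries high in other-cell markers they were 15 and 0. P2ry12, the purinergic receptor that directs process movement to injury, had 1055, 1476 and 1755 normalised reads at 48 h and 4538, 4892 and 5576 in NT (log2 -1.73 ± 0.12, adjusted p 6.45e-11). Gpr34, a lysophosphatidylserine receptor, had 221, 327 and 452 at 48 h and 1108, 1181 and 1463 in NT (log2 -1.94 ± 0.22, adjusted p 3.27e-07). Siglech, a sialic acid binding lectin, had 564, 1132 and 1364 at 48 h and 2370, 2587 and 2671 in NT (log2 -1.28 ± 0.15, adjusted p 3.17e-07). For these genes no 48 h library reached the NT range. Cx3cr1, the fractalkine receptor and the locus that carries the Cre in the mutants, had 2478, 3079 and 3687 at 48 h and 4661, 5317 and 5685 in NT (log2 -0.83 ± 0.11, adjusted p 1.52e-06), and Tmem119 2292, 2651 and 2861 at 48 h and 3305, 3888 and 4348 in NT (log2 -0.57 ± 0.10, adjusted p 0.00011). With DKO_post_LPS alone the Tmem119 difference was -0.32 (adjusted p 0.17).

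Csf1r, the survival receptor of microglia, moved little and averaged 7516 ± 450.0 at 48 h and 8962 ± 427 in NT (SD, n = 6 each; log2 -0.27 ± 0.10, adjusted p 0.0388), a call lost without any 1 of 6 libraries and without the 5 high in other-cell markers (adjusted p 0.194).

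Transcription factors of microglial identity fell in 9 of 14 genes, and Rbpj rose. Without the 5 libraries high in other-cell markers, 7 fell and 1 rose. Sall1, which holds microglial identity, had 138.2, 315 and 360.3 normalised reads at 48 h and 372, 478 and 509.6 in NT (log2 -0.78 ± 0.15, adjusted p 0.000278). Mef2c had 182, 233 and 291 at 48 h and 320.0, 356 and 465 in NT (log2 -0.72 ± 0.11, adjusted p 1.87e-05), and Maf 64.0, 83.7 and 132.4 at 48 h and 150.1, 202 and 209.9 in NT (log2 -1.15 ± 0.14, adjusted p 1.04e-06). The myeloid factor Cebpa had 127, 167 and 214 at 48 h and 267, 299 and 332 in NT (log2 -0.79 ± 0.12, adjusted p 2.01e-05). Rbpj, the transcription factor of Notch signalling, had 109.9, 137 and 161 at 48 h and 33.9, 57.02 and 61.6 in NT (log2 1.32 ± 0.14, adjusted p 8.43e-08). None of these 5 genes overlaps between 48 h and NT.

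TGF-beta signalling genes, on which this identity depends, fell in 6 of 17 tested and rose in 1. Tgfbr1, the signalling receptor, had 728, 961 and 1296 normalised reads at 48 h and 2142, 2832 and 3300 in NT (log2 -1.46 ± 0.12, adjusted p 2.53e-09). Smad3, its transcription factor, averaged 47.5 ± 11.5 at 48 h and 71.6 ± 7.84 in NT (log2 -0.67 ± 0.14, adjusted p 0.000426). The single rise was in Tgfbi, a secreted matrix protein, with 248, 411 and 639 at 48 h and 80.8, 99.1 and 108 in NT (log2 2.02 ± 0.16, adjusted p 1.09e-09).

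Cell cycle genes rose almost as a block. Of 43 listed, 42 were tested, 40 rose and only Ccnd1 fell (40 and 1 with edgeR, DESeq2 and quantile normalisation), against 17.2% of all genes higher, and the median log2 was 2.73. Mki67, the proliferation antigen Ki-67, had 39.6, 90.1 and 149.7 normalised reads at 48 h and 1.33, 5.55 and 8.13 in NT (log2 3.70 ± 0.39, adjusted p 7.05e-08). Top2a, the topoisomerase of mitotic chromosomes, had 71.5, 108 and 147.6 at 48 h and 6.33, 8.06 and 14.3 in NT (log2 3.33 ± 0.41, adjusted p 7.93e-07). Tk1, thymidine kinase of S phase, had 34.5, 80.5 and 159.9 at 48 h and 1.48, 7.15 and 13.3 in NT (log2 3.70 ± 0.35, adjusted p 1.63e-08). Mcm5, a subunit of the replicative helicase, had 57.1, 77.1 and 219 at 48 h and 7.23, 14.8 and 26.5 in NT (log2 2.75 ± 0.27, adjusted p 2.62e-08). These genes separate the groups without overlap. Cdc6, which loads that helicase, had 89 reads at 48 h and 3 in NT, a ratio of 19.8 with a counting interval of 6.55 to 97.7. Cdkn1a, the p21 inhibitor of the cycle, also rose, with 105, 174 and 362 at 48 h and 56.5, 99.2 and 141 in NT (log2 1.02 ± 0.21, adjusted p 0.000551). Ccnd1, cyclin D1, had 110.1, 145 and 351 at 48 h and 200.3, 285 and 376 in NT (log2 -0.64 ± 0.14, adjusted p 0.000855), with overlap, and did not pass within DKO_post_LPS alone (adjusted p 0.427).

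The promoters of Cdc6 and Mcm5 are shown for the E2F site, which S-phase genes are known for. These genes rose most among the rising cell cycle genes whose promoter holds a match, so their matches follow from the choice. The windows lie on the plus strand of GRCm38.p6 at chr11:98907901-98908150 and chr8:75109259-75109508. Matches to TTTCCCGC or TTTGGCGC on either strand are in capitals.
Cdc6: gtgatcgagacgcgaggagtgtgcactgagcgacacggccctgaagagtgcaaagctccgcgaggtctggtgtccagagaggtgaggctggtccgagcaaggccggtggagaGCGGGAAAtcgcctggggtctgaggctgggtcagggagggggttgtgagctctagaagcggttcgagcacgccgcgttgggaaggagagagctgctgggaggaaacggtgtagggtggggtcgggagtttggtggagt
Mcm5: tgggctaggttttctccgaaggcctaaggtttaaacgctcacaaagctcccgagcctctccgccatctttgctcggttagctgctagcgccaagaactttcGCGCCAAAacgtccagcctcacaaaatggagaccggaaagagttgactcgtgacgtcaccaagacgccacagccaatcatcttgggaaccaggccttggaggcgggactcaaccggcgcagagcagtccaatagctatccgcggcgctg
Each holds 1 match, which begins 149 bases before the start in Mcm5. A match lay in 4 of 36 promoters of rising cell cycle genes (11.1%; 31 of 40 genes had a promoter) and in 1.3% of all promoters.

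Ribosomal protein genes rose in 72 of 77 tested with 1 lower (73 and 1 with edgeR and DESeq2, 62 and 1 after quantile normalisation), with a list median log2 0.72. Rpsa averaged 1515 ± 430.0 at 48 h and 439 ± 201 in NT (SD, n = 6 each; log2 1.70 ± 0.12, adjusted p 9.51e-11). Genes of oxidative phosphorylation rose in 45 of 70 and fell in none (44 and 0 with edgeR and DESeq2, 28 and 0 with DKO_post_LPS alone), median log2 0.50. Cox5b, a subunit of cytochrome c oxidase, averaged 384 ± 52.5 at 48 h and 212 ± 23.2 in NT (log2 0.89 ± 0.12, adjusted p 3.37e-06). The share of mitochondrial transcripts was higher at 48 h too, as given above, and its part in these values was not tested.

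Other lists were mixed or small. Adhesion genes rose in 15 of 21 and fell in 1, Ms4a genes rose in 4 of 5, and genes of the oxidative burst, NRF2 targets, metallothioneins and immune metabolite enzymes rose in 11 of 24 and fell in 2. Cholesterol genes rose in 7 of 18 with none lower (7 and 0 with edgeR and with DESeq2, 7 and 2 after quantile normalisation, 2 and 0 of 19 with DKO_post_LPS alone). Of the next lists the counts were near the 17.2% higher and 14.2% lower over all genes tested, so they set none of these lists apart: feedback genes of the inflammatory response rose in 4 of 18 and fell in 3, inflammasome genes rose in 3 of 12 and fell in 2, glycolysis and hypoxia genes rose in 4 of 18 and fell in 2 (median log2 0.03), Toll-like receptors and their adaptors rose in 4 of 21 and fell in 2, and glucocorticoid-responsive genes rose in 3 of 13 and fell in 3. Pkm, pyruvate kinase, averaged 528 ± 61.0 at 48 h and 290.0 ± 39.1 in NT (log2 0.88 ± 0.10, adjusted p 3.16e-07), and Ldha, lactate dehydrogenase, 236 ± 21.1 at 48 h and 141 ± 14.5 in NT (log2 0.75 ± 0.10, adjusted p 3.23e-06). Cd14, the LPS co-receptor, had 559, 646 and 872 at 48 h and 741, 841 and 926 in NT (log2 -0.32 ± 0.10, adjusted p 0.0226). The glucocorticoid-responsive genes that fell include the receptor Nr3c1, with 136, 165 and 171 at 48 h and 247, 268 and 282 in NT (log2 -0.73 ± 0.09, adjusted p 6.46e-07), and Txnip, with 304, 319.7 and 432 at 48 h and 494, 671 and 823 in NT (log2 -0.99 ± 0.11, adjusted p 1.58e-07). The glucocorticoid list had a median log2 of -0.72 in AS_DKO_LPS_2ndexp alone and 0.78 in DKO_post_LPS alone. Heat shock and unfolded protein response genes rose in 11 of 26 and fell in 3, with 6 higher and 6 lower of 27 in AS_DKO_LPS_2ndexp alone (median log2 0.083) and 14 higher and 0 lower of 26 in DKO_post_LPS alone (median log2 0.91). The endoplasmic reticulum chaperone gene Hspa5 averaged 1124 at 48 h and 613 in NT (log2 0.86 ± 0.14, adjusted p 3.19e-05). Immediate early genes rose in 5 of 19 and fell in 2, but the list turned between experiments, with 10 higher and 2 lower of 19 in AS_DKO_LPS_2ndexp alone (median log2 0.54) and 1 higher and 4 lower of 20 in DKO_post_LPS alone (median log2 -0.15). Jun, an AP-1 subunit, had 645, 787 and 1128 at 48 h and 1184, 1426 and 1697 in NT (log2 -0.79 ± 0.18, adjusted p 0.00177).

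The design also asks how the later time differs from the early one. Between 48 h and 6 h, 5187 of 10757 genes differed (48.2%), 2819 higher (26.2%) and 2368 lower (22%) at 48 h; with DKO_post_LPS alone, 2 libraries against 2, 1947 differed. NF-kB genes were mostly lower at 48 h, and cell cycle and homeostatic genes mostly higher. NF-kB genes were lower in 17 of 21 and higher in none (17 and 0 with DESeq2, 18 and 0 with edgeR), cell cycle genes were higher in 38 of 42 and lower in 2, and homeostatic genes were higher in 17 of 24 and lower in none (18 and 1 with edgeR and with DESeq2, 12 and 2 after quantile normalisation, 12 and 1 with DKO_post_LPS alone). The interferon list was mixed, with 8 higher and 12 lower of 37 (4 and 3 with DKO_post_LPS alone).

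**Figure D3:**
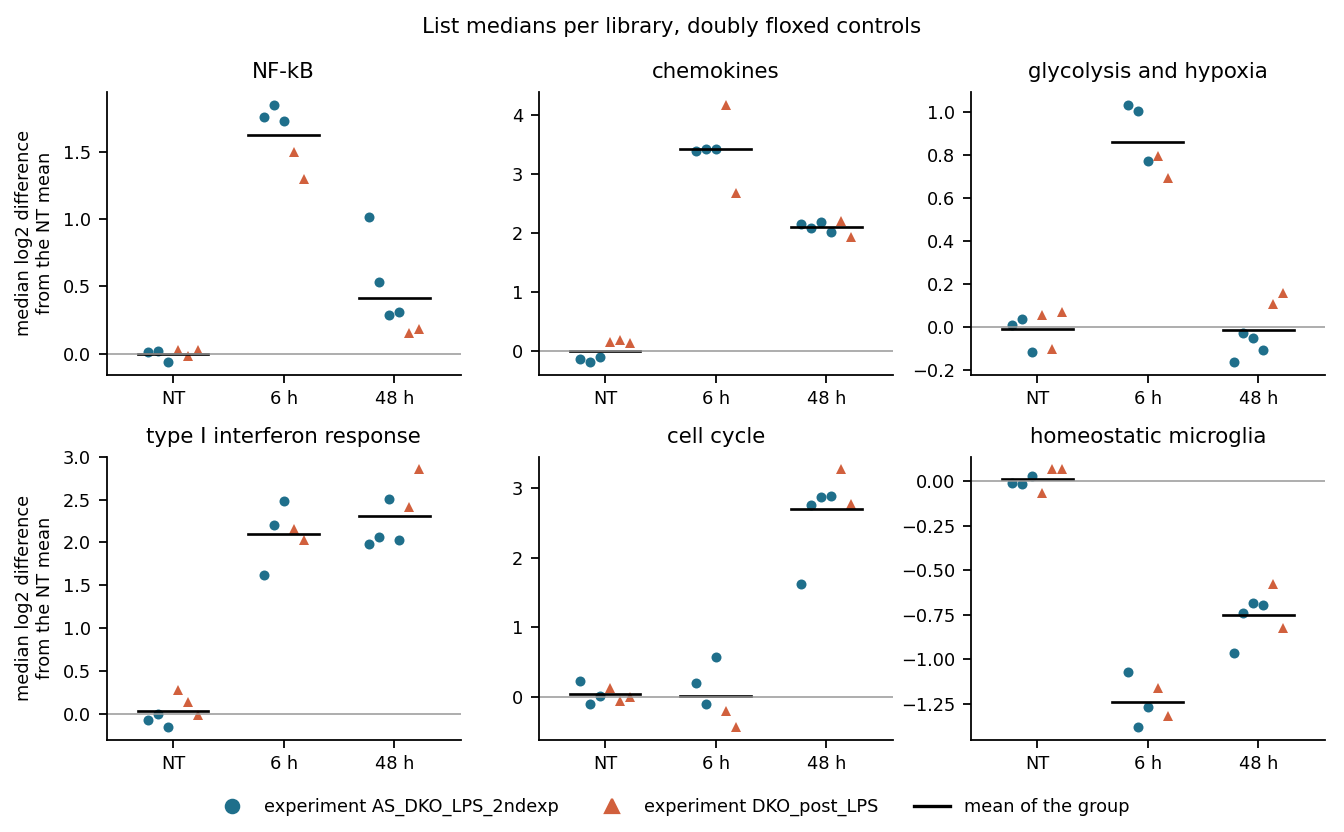
For 6 lists, each point is a library at NT, 6 h or 48 h, placed by the median over the list's tested genes of log2(value + 1) minus the NT mean of that gene; shape and colour give the experiment and the line the group mean. NF-kB genes lie between 1.3 and 1.85 at 6 h and 0.153 and 1.02 at 48 h, cell cycle genes between -0.427 and 0.571 at 6 h and 1.63 and 3.27 at 48 h, and homeostatic genes between -1.38 and -1.07 at 6 h and -0.962 and -0.578 at 48 h.

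Tnf and Il1b were lower at 48 h than at 6 h and still above NT. Tnf had 71.5, 127 and 246 normalised reads at 48 h, and 356, 603, 368, 497 and 172 in the 5 libraries at 6 h (log2 -1.62 ± 0.26, adjusted p 1.4e-05). Il1b had 62.8, 98.1 and 229 at 48 h and 548, 986, 601, 646 and 161 at 6 h (log2 -2.22 ± 0.37, adjusted p 2.24e-05). Tnf and Il1b overlap between the times. Il6 had 1.01, 1.57 and 3.76 at 48 h and 22.02, 20.6, 18.4, 39.1 and 11.6 at 6 h, with no overlap (log2 -2.88 ± 0.40, adjusted p 2.47e-06), so Il6 was lower at 48 h than at 6 h and than in NT. Ccl5 had 389.6, 546 and 716 at 48 h and 1102, 1801, 1710, 3191 and 2100 at 6 h (log2 -1.71 ± 0.15, adjusted p 3.37e-09), and Ccl12 849.9, 1142 and 1628 at 48 h and 2289, 3991, 2837, 3924 and 2522 at 6 h (log2 -1.40 ± 0.15, adjusted p 5.53e-08). Nfkbia had 716, 1076 and 1438 at 48 h and 3748, 4509, 3662, 4397 and 3358 at 6 h (log2 -1.95 ± 0.18, adjusted p 5.26e-09), and Cd14 559, 646 and 872 at 48 h and 5582, 7580, 6094, 5842 and 6472 at 6 h (log2 -3.23 ± 0.11, adjusted p 2.04e-16).

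Of the 8 genes with the largest falls after 6 h, 6 overlapped the NT range at 48 h. Overlap does not mean a return to NT, since Trem1 and Spp1 among these 6 passed the test as higher than NT. The Trem1 call against NT was lost without 48 h library 2 or 7 (adjusted p 0.0533 and 0.0921). Trem1, an amplifier of myeloid inflammation, had 1.57, 3.68 and 13.5 normalised reads at 48 h, 235, 240.2, 206, 182 and 235 at 6 h and 0, 1.33 and 3.38 in NT (log2 -5.34 ± 0.42 against 6 h). Slc7a11, the cystine transporter, had 0, 1.10 and 2.14 at 48 h, 97.5, 92.9, 58.9, 52.6 and 47.7 at 6 h and 0, 1.51 and 2.71 in NT (log2 -5.24 ± 0.40). Spp1 had 394 to 572 at 6 h (log2 -5.16 ± 0.31), and Il1rn 269 to 702 (log2 -5.09 ± 0.40). The other 4 were Zbtb16 (log2 -4.96), Rnd1 (-4.79), Plet1 (-4.74) and Ccr7 (-4.64, and -3.21 with an adjusted p of 0.0567 in DKO_post_LPS alone), and the metallothionein gene Mt2 averaged 74.5 ± 16.1 at 48 h and 1493 ± 694 at 6 h (SD, n = 6 and 5; log2 -4.20 ± 0.22, adjusted p 5.14e-13). Ms4a6d, a membrane protein of the Ms4a family, averaged 385 ± 90.6 at 48 h, 2033 ± 125 at 6 h and 127 ± 6.59 in NT (log2 -2.42 ± 0.12 against 6 h).

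The largest rises after 6 h were mostly of the cell cycle. Tcf19, Pkmyt1, Tk1, E2f1 and Pbk, which act in or control S phase and mitosis, were higher than at 6 h by log2 4.74, 4.48, 4.35, 4.31 and 4.15. E2f1, a transcription factor of S phase entry, had 27.8, 36.9 and 123 at 48 h, 2.20, 0.528, 3.68, 1.502 and 1.16 at 6 h and 3.37, 5.36 and 10.6 in NT. Cyp4f18 had 52.7, 123 and 149.7 at 48 h and 2.20, 2.11, 4.21, 12.02 and 1.16 at 6 h (log2 4.69 ± 0.42), so it was higher at 48 h than at 6 h as well as than in NT. Npnt and Nrp1 had no 6 h library in the NT range. Npnt, a matrix protein that binds integrin alpha 8 beta 1, had 67.5, 178 and 230.5 at 48 h, 3.30, 9.50, 4.21, 15.02 and 11.6 at 6 h and 116.4, 129 and 151 in NT (log2 4.24 ± 0.28 against 6 h, and 0.36 ± 0.27 against NT, adjusted p 0.336). Nrp1, the semaphorin co-receptor neuropilin 1, had 129, 150.0 and 173 at 48 h, 6.61, 11.1, 8.95, 7.51 and 4.66 at 6 h and 59.9, 68.1 and 113.4 in NT (log2 4.15 ± 0.19 against 6 h).

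P2ry12, Gpr34, Sall1 and Tmem119 stood between 6 h and NT at 48 h by their means. Other homeostatic genes did not: Siglech, Fcrls, Selplg, Cst3, P2ry13 and Rhob fell against NT without passing the test against 6 h, and the summed list had a median of 71110 at 48 h, 71010 at 6 h and 126600 in NT. P2ry12 had 1055, 1476 and 1755 normalised reads at 48 h and 487, 374, 402, 757 and 652 at 6 h (log2 1.51 ± 0.12, adjusted p 5.97e-10), and Gpr34 221, 327 and 452 at 48 h and 29.7, 32.7, 36.8, 88.6 and 87.3 at 6 h (log2 2.66 ± 0.23, adjusted p 2.1e-09). Sall1 averaged 294 ± 79.2 at 48 h and 103 ± 20.9 at 6 h (log2 1.44 ± 0.16, adjusted p 6.1e-08). None of the 3 genes overlaps between these times. Tmem119 averaged 2625 ± 201 at 48 h and 1892 ± 271 at 6 h (log2 0.47 ± 0.10, adjusted p 0.000639), a difference that missed the threshold after quantile normalisation (adjusted p 0.223).

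Other genes were higher at 48 h than at 6 h. C4b averaged 393 ± 44.3 at 48 h and 74.7 ± 18.1 at 6 h (SD, n = 6 and 5; log2 2.40 ± 0.18, adjusted p 1.84e-10). Cd52 averaged 1964 ± 292 at 48 h and 416 ± 52.2 at 6 h (log2 2.24 ± 0.11, adjusted p 7.84e-14), and Ifi27l2a 1362 ± 706 at 48 h and 133.8 ± 57.3 at 6 h (log2 3.22 ± 0.36, adjusted p 1.01e-07). Axl averaged 149 ± 46.4 at 48 h, 25.8 ± 9.33 at 6 h and 28.0 ± 6.63 in NT (log2 2.49 ± 0.21 against 6 h, adjusted p 1.42e-09). Apoe and Lyz2 had means below NT at 6 h and above it at 48 h: Apoe averaged 14590 ± 4140 at 48 h, 4954 ± 1150 at 6 h and 7704 ± 1350 in NT (log2 1.57 ± 0.14 against 6 h, adjusted p 1.81e-09), and Lyz2 1212 ± 147 at 48 h, 436 ± 102 at 6 h and 712 ± 125 in NT (log2 1.504 ± 0.14, adjusted p 3.28e-09). The 6 h and NT levels of these genes are given as values, without a test between them. Saa3 was only 0.99 log2 higher at 48 h than at 6 h (adjusted p 0.00422, and 0.0921 after quantile normalisation).

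The same response could be compared between the experiments, since both hold 48 h and NT libraries. In 1.01% of 10757 genes the 48 h response differed between them, 57 genes (0.53%) with a higher response in AS_DKO_LPS_2ndexp and 52 (0.483%) with a lower one; edgeR found 29 and DESeq2 75. Leaving out 1 library moved the share between 0.271 and 1.39%; it was under 0.6% without any 1 of NT libraries 1, 2, 3 or 4 (0.271, 0.552, 0.514 and 0.507%) or 48 h libraries 3, 4 or 5 (0.318, 0.375 and 0.571%). The experiments also differ in depth, with 1182316 to 2243785 reads per library in AS_DKO_LPS_2ndexp and 583560 to 964473 in DKO_post_LPS, and the part of depth was not tested.

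Glucocorticoid-responsive genes are among them. Fkbp5, an induced chaperone of the glucocorticoid receptor, averaged 154 at 48 h and 300.0 in NT in AS_DKO_LPS_2ndexp, but 253 at 48 h and 98.0 in NT in DKO_post_LPS (difference of the log2 responses -2.25 ± 0.32, adjusted p 0.0036). Its 48 h libraries were 177, 121, 139.8 and 179 in AS_DKO_LPS_2ndexp and 167 and 339 in DKO_post_LPS, and its NT libraries 369.5, 253 and 277 in AS_DKO_LPS_2ndexp and 123.5, 79.1 and 91.5 in DKO_post_LPS. The contrast therefore lies at least as much in the NT libraries as in the 48 h ones. Tsc22d3, which encodes GILZ, averaged 113.6 at 48 h and 194 in NT in AS_DKO_LPS_2ndexp, and 194 at 48 h and 116.1 in NT in DKO_post_LPS (difference -1.54 ± 0.27, adjusted p 0.00706). Ddit4, an mTORC1 inhibitor induced by stress, differed by -3.27 ± 0.65 (adjusted p 0.0186, lost without either 1 of 2 libraries). The clock gene Per1 differed by -2.04 ± 0.47 (adjusted p 0.0423, lost with edgeR at 0.0832 and DESeq2 at 0.114). The Per1 call was also lost without some single libraries, at an adjusted p of up to 0.124.

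Some immediate early and stress genes went the other way, and some heat shock genes did not. Atf3, a stress transcription factor, averaged 181 at 48 h and 39.4 in NT in AS_DKO_LPS_2ndexp, and 66.6 at 48 h and 89.9 in NT in DKO_post_LPS (difference 2.58 ± 0.42, adjusted p 0.00544). Egr1 averaged 1167 at 48 h and 844 in NT in AS_DKO_LPS_2ndexp, and 513 at 48 h and 832 in NT in DKO_post_LPS (difference 1.17 ± 0.22, adjusted p 0.0119), and Ppp1r15a differed by 1.81 ± 0.31 (adjusted p 0.00706). Il6st, the signalling chain of the interleukin 6 receptors, averaged 194 at 48 h and 212 in NT in AS_DKO_LPS_2ndexp, and 119 at 48 h and 352 in NT in DKO_post_LPS (difference 1.42 ± 0.21, adjusted p 0.00448). The chaperone genes Dnaja1, Hsph1, Hsp90ab1 and Hspa8 had lower responses in AS_DKO_LPS_2ndexp, by -1.74 ± 0.28, -2.89 ± 0.52, -1.29 ± 0.27 and -1.30 ± 0.32 (adjusted p 0.00544, 0.00777, 0.025 and 0.0487); the calls of Hsph1 and Hspa8 were lost with edgeR, that of Hspa8 also with DESeq2 and without any 1 of 11 libraries, and that of Hsp90ab1 without any 1 of 4.

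Of the cell cycle genes, Pcna and Tyms responded less in AS_DKO_LPS_2ndexp. Pcna, the sliding clamp of replication, averaged 85.6 at 48 h and 58.4 in NT in AS_DKO_LPS_2ndexp, and 238 at 48 h and 61.7 in NT in DKO_post_LPS (difference -1.42 ± 0.27, adjusted p 0.0121). Tyms, thymidylate synthase, differed by -1.53 ± 0.35 (adjusted p 0.0422, lost with edgeR and DESeq2 at 0.0703 each and without any 1 of 8 libraries), and Ccnd3, cyclin D3, by -1.43 ± 0.25 (adjusted p 0.0072). H2-Aa averaged 11.1 at 48 h and 21.6 in NT in AS_DKO_LPS_2ndexp, and 11.4 at 48 h and 139.8 in NT in DKO_post_LPS (difference 2.73 ± 0.56, adjusted p 0.0227, lost with edgeR at 0.0973). Its call was also lost without some single libraries, at an adjusted p of up to 0.062. The 48 h levels of this gene were alike and the NT levels were not.

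**Figure D4:**
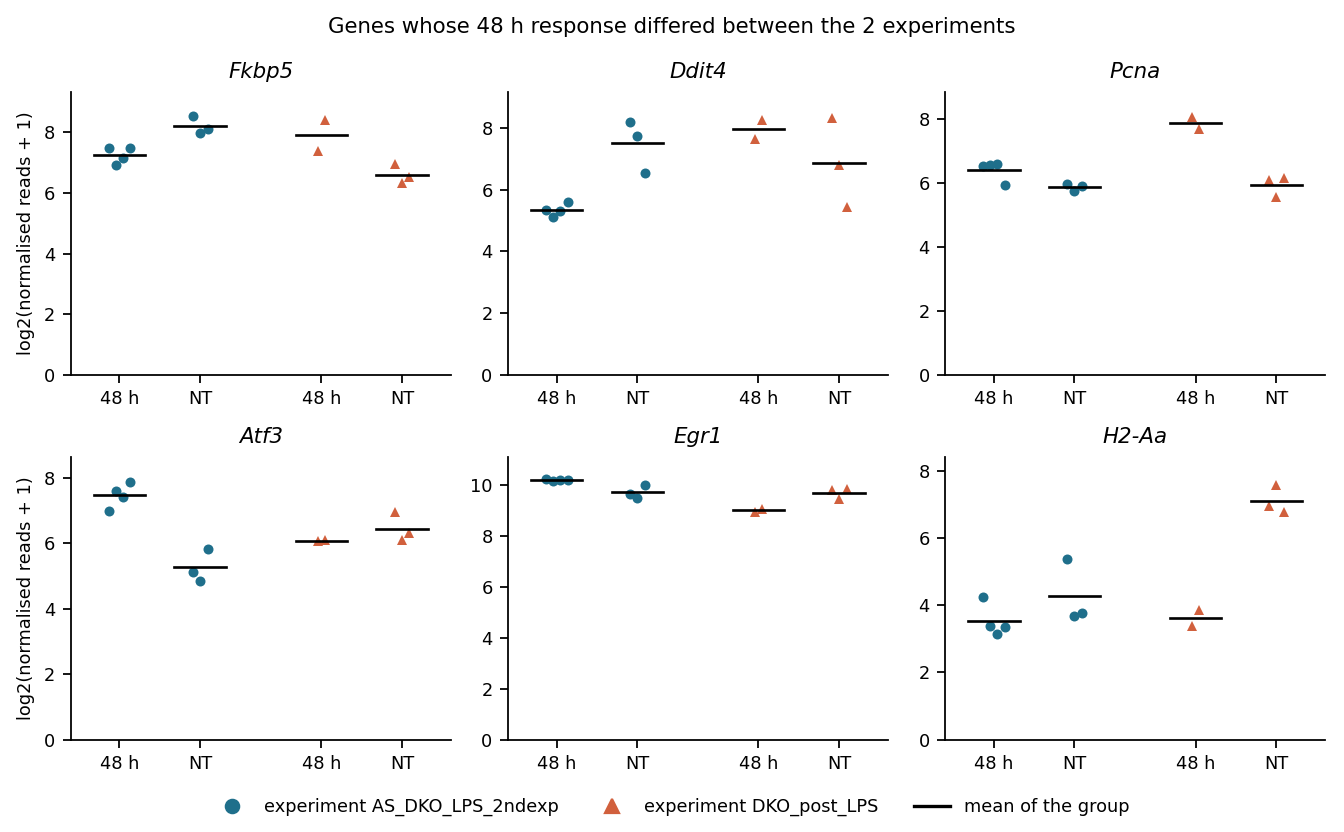
For 6 genes whose 48 h response differed between the experiments, each point is a library, placed by log2(normalised reads + 1), with 48 h left of NT within each experiment; colour and shape give the experiment and the line the mean. Fkbp5 and Ddit4 lie below NT at 48 h in AS_DKO_LPS_2ndexp and above it in DKO_post_LPS by their means, and Atf3 and Egr1 the other way round.

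Loss of both floxed genes in Cx3cr1-expressing cells is the change against which these controls are set. Il10ra averaged 38.5 ± 30.4 in double mutants at 48 h and 414 ± 53.3 in the controls at 48 h, and Tnf 6.09 ± 2.27 in double mutants and 135 ± 62.6 in controls (SD, n = 4 and 6), so the labels of these groups match their targeted genes. In NT, Il10ra had 9.75 to 37.1 in double mutants and 409.6 to 533 in controls. The column of 1 of these 5 double mutant NT libraries is marked as a mistake; its title and description give no other group, its Il10ra lies in the range of the others, and it was kept. No gene passed the test for a difference in the 48 h response between double mutants and controls by limma, of 11800 tested genes (0.0%), with 4.02% at an unadjusted p under 0.05 and a smallest adjusted p of 0.481; edgeR and DESeq2 also found 0, as did limma without the double mutant library marked as a mistake. The response of Tnf itself differed by -1.65 ± 0.62 (adjusted p 1). On simulated data this comparison recovered 28.4% of genes with a true log2 difference of 1 and 95.2% of those with 2. Most differences of the smaller size would therefore be missed with these libraries. The simulation gave all genes the same spread beyond counting error and no difference between experiments. It does not give the recovery for genes that vary more between libraries, so larger differences can be missed too.

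Several genes that lead the control response are given side by side. Saa3 averaged 3158 ± 1060 in double mutants at 48 h and 37.98 ± 12.2 in their NT libraries, against 5357 ± 2630 at 48 h and 53.1 ± 29.1 in NT in controls. P2ry12 averaged 1366 ± 292 at 48 h and 4341 ± 1210 in NT in double mutants, against 1456 ± 233 at 48 h and 4992 ± 386 in NT in controls. Mki67 averaged 70.1 ± 50.4 at 48 h and 4.27 ± 3.10 in NT in double mutants, against 88.9 ± 39.7 at 48 h and 5.18 ± 2.39 in NT in controls. C4b averaged 465 ± 48.9 at 48 h and 11.5 ± 2.78 in NT in double mutants, against 393 ± 44.3 at 48 h and 17.9 ± 5.11 in NT in controls. The direction between 48 h and NT was the same in both genotypes for each of these genes.

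The contrast of 48 h with NT was also made in other mice, the IL10Rafl/fl controls, whose table was normalised separately, so no test was made across the tables. All 6 of their 48 h libraries but just 3 of their 6 NT libraries came from 1 experiment, AS_3rd_LPS, so with the experiment term the difference rests on 6 libraries against 3. There 1231 of 11103 genes rose (11.1%) and 877 fell (7.9%). Of 10499 genes tested in both, 884 rose in both kinds of control, 49.9% of the 1770 rises in doubly floxed and 72.9% of the 1212 in Il10ra fl/fl controls. Falls were shared by 552 genes, 36.4% of 1518 in doubly floxed and 64.9% of 851 in Il10ra fl/fl controls. Leaving out NT library 4, 5 or 6 of the Il10ra fl/fl controls, those of that experiment, brought the genes that changed there to 1390, 1428 and 1425, against 2108; the shared rises were then 39.9, 40.0 and 40.0% of those in doubly floxed controls, and the shared falls 24.1, 25.3 and 24.9%. Of the genes called in doubly floxed controls, 92.5% of the rises and 90.2% of the falls had the same sign in the other mice, against 72.4% of all genes.

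All 24 genes of the largest rises and falls changed in the same direction in Il10ra fl/fl controls. Saa3 differed by log2 6.56 ± 0.66 there, Fn1 by 6.11 ± 0.59, Lrg1 by 6.45 ± 0.55 and Upk1b by -3.90 ± 0.31. Gpx3 was the rise with the most distant values, at 4.68 ± 0.49 in doubly floxed and 1.67 ± 0.54 in Il10ra fl/fl controls, where it averaged 9.05 ± 3.14 at 48 h and 1.57 ± 0.96 in NT and its call was lost without any 1 of 4 libraries. Of the falls, Tmem204 was at -2.65 ± 0.30 in doubly floxed and -1.196 ± 0.27 in Il10ra fl/fl controls. In the lists, 34 of 36 interferon response genes rose in Il10ra fl/fl controls, 30 of 38 cell cycle genes rose, and 15 of 24 homeostatic genes fell with 1 higher. Mki67 averaged 13.8 ± 12.9 at 48 h and 2.31 ± 0.543 in NT there (log2 1.87 ± 0.59, adjusted p 0.025), a call lost without any 1 of 3 of those libraries.

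Just 4 genes were called in opposite directions: Cd14, BC037034, Selenos and Lamb2. Cd14 fell by 0.32 in doubly floxed controls (adjusted p 0.0226) and was 0.80 ± 0.20 log2 higher at 48 h in Il10ra fl/fl controls, with 894 ± 177 at 48 h and 563 ± 70.9 in NT (adjusted p 0.00529). BC037034 was at -0.45 ± 0.16 in doubly floxed and 0.86 ± 0.23 in Il10ra fl/fl controls, Selenos at -0.27 ± 0.09 and 0.43 ± 0.14, and Lamb2 at 0.79 ± 0.26 and -1.11 ± 0.35. All 4 calls in doubly floxed controls were lost without at least 1 library (adjusted p up to 0.0605 for Cd14, 0.124 for BC037034, 0.0811 for Selenos and 0.0945 for Lamb2), those of Selenos and Lamb2 in Il10ra fl/fl controls likewise (up to 0.104 for each), and within neither experiment alone did the call of Cd14 hold (adjusted p 0.105 and 0.15).

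**Figure D5:**
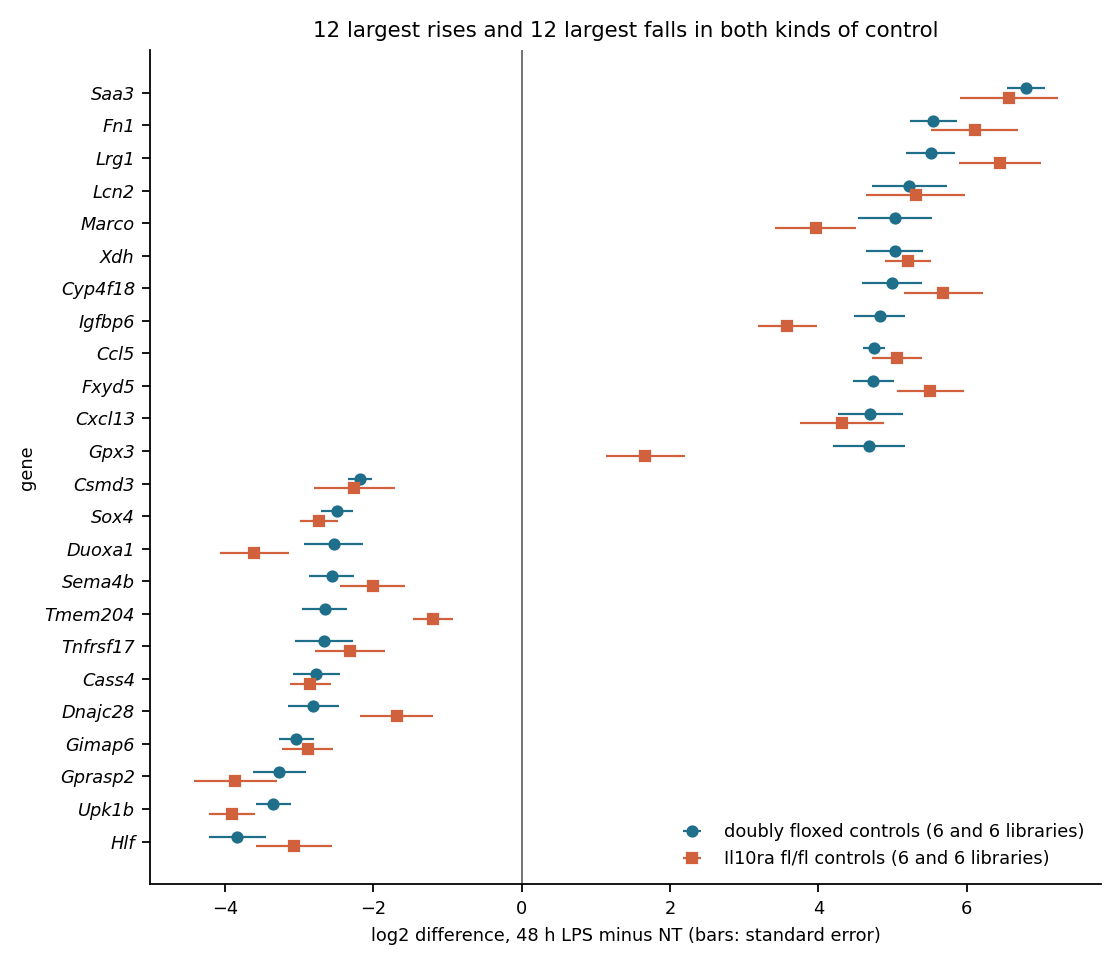
The 12 largest rises and 12 largest falls of doubly floxed controls, each with its log2 difference between 48 h LPS and NT (horizontal axis, bar: standard error) in doubly floxed controls (circles) and in Il10ra fl/fl controls (squares). Every square lies on the same side of 0 as its circle, with Gpx3 and Tmem204 among the most distant pairs.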

How the data were processed

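RNA of mouse microglia was read from 2 tables. The authors deposited normalised read counts per gene and library, a signal scale in which each library's values are whole reads times 1 factor: whole reads were recovered for 100% of values (tolerance 0.01). Reads refer to mm10, per the submitters' processing notes; no label or file header used here names an aligner. The tables hold 13390 genes in 38 libraries and 12498 genes in 26; 18 and 17 rows with date names were left out, and 0 value columns had no sample.

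Genes with at least 5 normalised reads in as many libraries as the smallest group were tested with limma 3.58.1 (R 4.3.3) on log2(value + 1), with experiment as a term and Benjamini-Hochberg adjustment. Alternatives were edgeR 4.0.16 and DESeq2 1.42.0 on the recovered reads, other pseudocounts, filters, quantile normalisation, single experiments and leaving out each library. The fits were tested on simulated data. The smallest chi-square per degree of freedom between libraries of a group was 1.834, so all differ by more than counting error. Each was counted as its own sample, but this value cannot tell whether libraries came from separate animals. Counting intervals are exact at 95% and cover counting error only. Promoters come from RefSeq (GRCm38.p6), 250 bases before the start.

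The members and lists were chosen with earlier results of these data known. Named genes were the 12 largest rises and 12 largest falls among called genes with an absolute log2 of at least 1, a mean of at least 20 in 1 group and every 48 h library beyond the NT mean, predicted genes left out. The 8 largest each way were taken against 6 h, with Il10ra, Tnf, key genes of each list and the 4 of lowest p in each list. Il16, Ltb, Rsad2, Oas3, Ifi27l2a, Gpr34, Cdc6, Wfdc17, Cd9, the genes called in opposite directions, and most genes that differed between experiments were chosen after their values were seen. Some genes of the lists enter the counts but are not reported here.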

Additional observations from a re-analysis of the deposited data

Results flagged for a closer look

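Of 396 gene and group pairs looked at, 23 (5.81%) had 1 library apart from the others by Dixon's criterion, and chance flags about 1 in 20 groups. Values are normalised reads, with the nearest other library after each. At 48 h, library 7 stood high for Cxcl10 (428.1, nearest 227.6) and Oas3 (30.34, nearest 11.29) and low for Sall1 (138.2, nearest 299.4). Library 6 was high for Sox4 (31.98, nearest 13.7) and Ccr7 (15.05, nearest 1.565), library 2 for Maf (132.4, nearest 88.68), library 4 for Lgals3bp (2031, nearest 1675) and library 5 for Txnip (432.4, nearest 346.5). At 6 h, library 4 had 6 such values, the most of any library: Cyp4f18 (12.02, nearest 4.209), Cxcl13 (109.7, nearest 34.31), H2-Eb1 (48.07, nearest 10.48), Axl (42.06, nearest 24.28), Ms4a6c (743.6, nearest 575) and Wfdc17 (33.05, nearest 15.31). At 6 h, library 3 was high for Lcn2 (952.9, nearest 243.3) and Plet1 (243.6, nearest 179.5), and library 5 low for Il1a (50.05, nearest 144.7). In NT, library 4 was high for Lcn2 (45.69, nearest 16.03), Csf1 (52.46, nearest 30.41) and Ccr7 (1.692, nearest 0) and low for Sall1 (372.3, nearest 460). Library 6 of NT was high for Ifitm3 (49.08, nearest 25.96) and library 1 for Cp (16.03, nearest 7.53).

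The 48 h response differed between the experiments, by the interaction test, for 16 genes named above. As log2 response in AS_DKO_LPS_2ndexp minus that in DKO_post_LPS, it was lower for Ddit4 (-3.27), Hsph1 (-2.89), Fkbp5 (-2.25), Per1 (-2.04), Dnaja1 (-1.74), Tsc22d3 (-1.54), Tyms (-1.53), Ccnd3 (-1.43), Pcna (-1.42), Hspa8 (-1.30) and Hsp90ab1 (-1.29). It was higher for H2-Aa (2.73), Atf3 (2.58), Ppp1r15a (1.81), Il6st (1.42) and Egr1 (1.17). The call of 7 of these 16 was lost under at least 1 alternative.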

How the results depend on the processing

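Between 48 h and NT, 3371 genes changed; 1661 did with DKO_post_LPS alone, 1868 with the replicate number as a block, and 2247 without the 5 libraries highest in other-cell markers, an alternative chosen after seeing the data. Against 6 h, 1947 genes differed with DKO_post_LPS alone and 3766 with the block, against 5187. Whether the numbers pair the libraries is not known. Deviations of same-numbered 48 h and NT libraries correlated at 0.121 to 0.246 within an experiment and at -0.164 and -0.119 across experiments. Experiment was not removed from these deviations, so they cannot show whether the numbers pair libraries. Of the passing genes named against NT, 23 missed the threshold in some setting and 2 turned sign, both with DKO_post_LPS alone: Lamb2 to -0.0051 and BC037034 to 0.0562. Of 60 named against 6 h, 8 missed it and none turned in the settings run. The share of genes whose response differed between experiments was 1.01%; it was 0.27% with edgeR, 0.598% with no filter, 1.63% with a filter of 20, and 0.271 to 1.39% without 1 library. In Il10ra fl/fl controls, leaving out 1 library gave 1390 to 2215 genes, the lowest without NT library 4. The cause of these moves was not tested, beyond fewer libraries in the fits that leave some out. Depth limits low genes: the shallowest library had 583560 reads.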

Other observations

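The library titled as a doubly floxed control at 48 h but described as a double mutant entered no comparison. It had 466.6 normalised reads of Il10ra, 266.1 of Tnf, 4049 of Cx3cr1, 4870 of Saa3, 378.3 of C4b, 718.6 of Lcn2, 1072 of P2ry12 and 55.2 of C3. Its Il10ra lay within the range of the 48 h doubly floxed controls given above, and its Tnf above that of each of them. Neither gene was near the double mutant mean at 48 h. The column of this library names a 48 h control and is marked as a mistake.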
